A study of Mus musculus with 11 samples.

Results

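In this ATAC-seq series, which maps open chromatin by inserting adapters into accessible DNA, 2 libraries of innate lymphoid cell precursors (ILCP) were compared with 3 libraries of common lymphoid progenitors (CLP), both sorted from mouse bone marrow. The peaks of the 5 libraries were merged wherever they overlapped by at least 1 bp, which gave 52483 intervals, against 71375 when the 4 thymic ATAC-seq libraries of the series were merged in as well. An interval was called ILCP-gained where both ILCP libraries and no CLP library had a peak (4556 intervals, 8.68% of all). It was called CLP-lost where all 3 CLP libraries and neither ILCP library had one (4277 intervals, 8.15%). It was called shared where all 5 libraries had one (12176 intervals, 23.2%). The other 31474 intervals had mixed patterns, and 11717 of them had peaks in CLP replicates 2 and 3 alone. The locus of Zbtb16, which encodes PLZF, was left out together with 20 kb on each side.

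All mice were of the C57BL/6 strain and 4 to 8 weeks old, with no treatment given in the labels. ILCP were sorted as Lin- IL-7Ra+ a4b7+ eGFP+ cells. The study kept a Zbtb16-IRESGFPcre line whose eGFP reports PLZF expression, but its methods do not name the line used for these libraries. CLP were sorted as Lin- IL-7Ra+ cKit int Sca-1 int Flt3 high cells, and whether their donors carried the reporter allele is not given in the sources used here. The thymic libraries, 2 of NKT cells and 2 of CD4 single positive (CD4SP) thymocytes, were used only as independent samples in which to look up the bone marrow classes. How many animals were pooled for each library is not given in the sources used here, so p-values measure the spread between these libraries.

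A CLP is a bone marrow progenitor that can still give rise to B cells, T cells, NK cells, dendritic cells and innate lymphoid cells. An ILCP lies further along the innate lymphoid branch, expresses PLZF transiently and gives rise to helper-like innate lymphoid cells. The branch is known to depend on Tcf7 (TCF-1), Gata3, Nfil3, Tox, Id2 and Ets1, whereas B lineage priming rests on the E proteins, Ebf1 and the ETS factor PU.1. Id2 works by binding E proteins and keeping them off DNA.

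Peak calls limit what a class can say. An interval without a peak may be closed or merely under the calling threshold, and in bulk libraries fewer cells with an open site and a less open site in each cell cannot be told apart. CLP replicate 1 had 19341 peaks, against 41526 and 40132 in CLP replicates 2 and 3 and 26319 and 25760 in ILCP replicates 1 and 2. Nearly all intervals of CLP replicate 1 (99.1% and 98.8%) were also open in CLP replicates 2 and 3, so the smaller set was nested in the larger ones. The 2 ILCP libraries shared 21030 of the 29122 intervals open in either, a Jaccard index of 0.722, against 0.804 for CLP replicates 2 and 3 and 0.385 to 0.433 for pairs of 1 ILCP and 1 CLP library. The study's methods give a single range of reads for all ATAC-seq libraries, and the depth of each library is not given in the sources used here. Genes that every cell uses show the same limit, with a peak within 1 kb of a start site for 13, 15 and 15 of 15 housekeeping genes in the CLP libraries and for 14 and 11 in the ILCP libraries.

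The labelled cell types were checked at the start sites of their defining genes. Of 9 ILCP genes, Gata3, Id2, Tox, Nfil3, Itga4 and Pdcd1 had a peak within 1 kb of a start site in both ILCP libraries, Il7r had one in ILCP replicate 1 alone, and Itgb7 and Tcf7 had none in either. Tcf7 had no such peak in any of the 5 libraries, and its single ILCP-gained interval lay in an intron. CLP replicates 1 to 3 had such peaks at 6, 8 and 8 of the 9 ILCP genes, so start sites did not separate the populations on this list. Of 7 CLP genes, Rag1, the recombinase subunit, was open at its start site in all 3 CLP libraries and in neither ILCP library. Dntt, which encodes terminal transferase, was open in CLP replicates 2 and 3 and in no ILCP library. Flt3 and Kit were open in all 5, Ly6d in CLP replicate 2 alone and Ly6a in none. Among markers of other cells, the ILCP libraries had no start-site peak at any of 15 myeloid or 8 mast cell and basophil genes. ILCP replicates 1 and 2 did have such peaks at 3 and 3 of 12 annotated erythroid and megakaryocyte genes. They had them at 5 and 3 of 10 dendritic cell genes and at 11 and 10 of 23 B lineage priming genes. At T cell receptor signalling genes the counts were 8 and 8 of 20, and at NK genes 5 and 6 of 15. The CLP libraries had such peaks at 0, 3 and 2 of the myeloid genes, at none of the mast cell and basophil genes, at 2, 6 and 5 of the erythroid and megakaryocyte genes and at 6, 9 and 7 of the dendritic cell genes. They had 9, 19 and 17 at B lineage, 6, 13 and 10 at T cell receptor and 5, 10 and 8 at NK genes. The part of other cells in the classes was not tested.

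The sequences of a few class members show what the motif counts below rest on. They are the central 200 bp, in the mm10 (GRCm38) assembly and on its forward strand, of the highest-ranked interval of each of 4 genes among those of the gene lists with the most ILCP-gained or CLP-lost intervals. Capitals mark every match to the TCF/LEF words CTTTGAA and its variant CTTTGAT, the GATA words AGATAA and its variant TGATAA, the ROR word TAGGTCA, the PU.1 word GAGGAAGT, the ETS-IRF composite GGAANTGAA, the E protein words CAGCTG and its variant CAGGTG, and the EBF1 word CCCNNGGGA, on either strand. The first 2 windows are from ILCP-gained intervals, with TCF/LEF and GATA matches at Ets1 and none at Pdcd1. The last 2 are from CLP-lost intervals, with an ETS-IRF composite and an E protein match at Etv6 and, against the trend of its class, a TCF/LEF and a GATA match at Prdm1.
Ets1, ILCP-gained, intron, chr9:32741070-32741269: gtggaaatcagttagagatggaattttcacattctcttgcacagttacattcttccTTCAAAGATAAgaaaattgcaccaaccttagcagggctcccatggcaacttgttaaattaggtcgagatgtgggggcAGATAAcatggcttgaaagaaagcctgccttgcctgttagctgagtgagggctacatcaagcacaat
Pdcd1, ILCP-gained, intron, chr1:94040554-94040753: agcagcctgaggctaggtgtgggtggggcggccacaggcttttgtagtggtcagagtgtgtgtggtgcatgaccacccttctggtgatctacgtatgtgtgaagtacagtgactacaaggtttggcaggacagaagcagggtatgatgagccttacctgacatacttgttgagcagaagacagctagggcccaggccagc
Etv6, CLP-lost, intergenic, chr6:134020881-134021080: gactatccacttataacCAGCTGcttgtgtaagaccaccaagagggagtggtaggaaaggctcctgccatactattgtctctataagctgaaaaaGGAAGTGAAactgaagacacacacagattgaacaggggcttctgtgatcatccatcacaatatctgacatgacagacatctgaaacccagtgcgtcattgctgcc
Prdm1, CLP-lost, intron, chr10:44448167-44448366: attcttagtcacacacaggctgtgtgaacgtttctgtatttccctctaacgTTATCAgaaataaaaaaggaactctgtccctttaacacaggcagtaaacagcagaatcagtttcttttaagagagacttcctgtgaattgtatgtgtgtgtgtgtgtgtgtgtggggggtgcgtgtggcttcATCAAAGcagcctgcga

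The ILCP-gained intervals were the class farthest from promoters. Only 109 of 4556 (2.39%, 95% Wilson interval 1.99 to 2.88) had their midpoint within 1 kb of the start site of a protein-coding transcript. The share was 9.42% (8.58 to 10.3) of CLP-lost intervals, 53.6% (52.8 to 54.5) of shared intervals and 23.6% of all intervals. The median distance to the nearest start site was 33.7 kb for ILCP-gained, 23.6 kb for CLP-lost and 541 bp for shared intervals, against 15.7 kb for all. Introns held 50.9% of ILCP-gained and 45.0% of CLP-lost intervals, intergenic sequence held 43.6% and 42.7%, and exons held 3.07% and 2.83%. These confidence intervals cover counting error alone, since members of a class come from the same libraries. Without CLP replicate 1 the CLP-lost share near start sites was 15.3%.

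**Figure D1:**
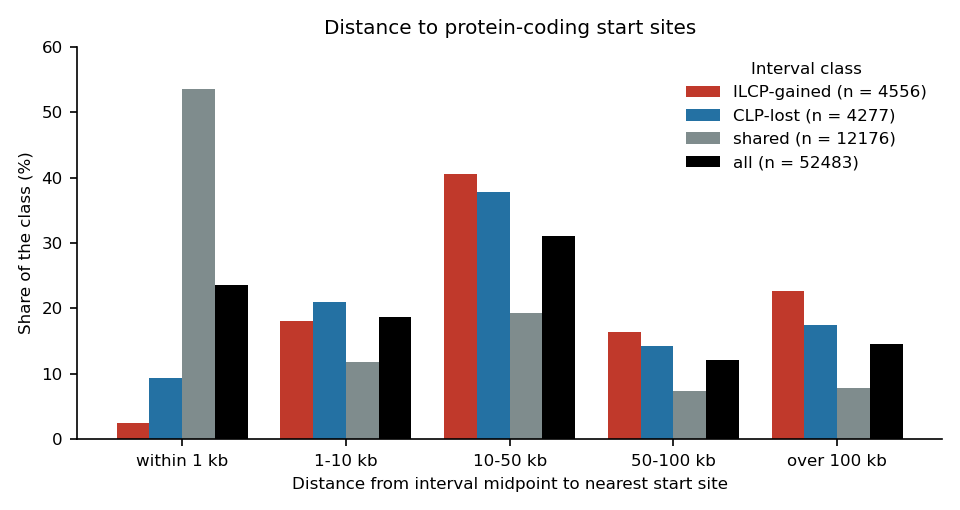
Distance from the interval midpoint to the nearest protein-coding start site (x axis, in bins) against the share of each class in percent (y axis); bars are single values without error bars. The shared class peaks within 1 kb (53.6%), while the ILCP-gained and CLP-lost classes peak between 10 and 50 kb (40.5% and 37.9%).

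This difference between classes did not show as a difference between whole libraries. Within 1 kb of a start site lay 32.9% and 32.7% of peaks in the ILCP libraries and 40.3%, 28.5% and 29.1% in CLP replicates 1, 2 and 3. The ILCP values sat inside the CLP range, with means of 32.8% ± 0.156 (SD, n = 2) and 32.6% ± 6.62 (SD, n = 3) and p = 1 in an exact two-sided permutation test. CLP replicate 1, the library with the fewest peaks, set the upper end, and without it the difference was 4.01 percentage points (exact permutation p = 0.3333, the smallest possible). When each library was cut to its best 19341 peaks by score, the ILCP mean was 5.24 points below that of CLP (exact permutation p = 0.2).

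Lost promoters differed in base composition from gained ones. The median GC content of the central 200 bp was 59.5% at the 403 start-site intervals that were CLP-lost and 49.5% at the 109 that were ILCP-gained, against 65.0% at shared ones. Away from start sites the medians were closer, at 48.5%, 46.5% and 49.5%. The ILCP-gained intervals were also narrower, with a median width of 862 bp at distal positions against 1147 bp for CLP-lost intervals, and peaks were narrower in the ILCP libraries as a whole (medians of 820 and 813 bp) than in the CLP libraries (874, 1035 and 1033 bp). The part of peak width in the classes was not tested.

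Few genes of the lists had a class member at their start site. ILCP-gained intervals lay within 1 kb of a start site at 5 of 199 list genes with an interval (2.51%), against 0.743% of all 14680 genes with an interval: Ncr1 (the NK receptor NKp46), Xcl1 (a chemokine), Cd226 (an activating receptor of NK and T cells), Themis (a T cell receptor signalling protein) and Pou2af1 (a B cell co-activator). At Ncr1 the peak, 105 bp upstream of the start site at chr7:4337269-4337969, was low in both ILCP libraries, at the 16.1 and 5.24 percentile of their scores, and had no counterpart in the thymic libraries. At Cd226 it stood at the 91.6 and 88.0 percentile and was open in all 4 thymic libraries, and all 3 CLP libraries had a peak at another start site of the gene. CLP-lost intervals lay at the start sites of 9 list genes (4.52%, against 2.74% of all) when each interval was given to the gene with the nearest start site, among them Spi1 (which encodes PU.1), Tal1, Notch2, Hes5, Tyrobp, Cd5, Il1r1 and Il18rap. This count leaves out Rag1, since the CLP-lost interval at chr2:101648979-101650101, within 1 kb of a Rag1 start site, lay nearer to one of B230118H07Rik. When intervals were counted for every gene with a start site within 1 kb, an alternative added after seeing the data, Rag1 made the count 10 of 149 list genes with any interval there (6.71%), against 3.47% of 12404 genes, and the ILCP-gained count stayed at 5 (3.36%, against 0.895%). The Spi1 interval, 88 bp downstream of a start site at chr2:91096228-91097509, was at the 45.0, 68.3 and 72.8 percentile in CLP replicates 1, 2 and 3 and was open in none of the thymic libraries, while ILCP replicate 2 had a peak at another Spi1 start site. ILCP replicate 2 also had a peak at another start site of Cd5, whose lost start-site interval was open in all 4 thymic libraries.

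Distal members of the classes differed in the transcription factor words at their centres. The TCF/LEF word, bound by TCF-1 and LEF-1, was present in 27.7% of the 4447 distal ILCP-gained intervals (26.5 to 29.1, Wilson) and in 5.11% of the 3874 distal CLP-lost intervals (4.46 to 5.85), a ratio of 5.43. The GATA word was present in 32.4% (31.1 to 33.8) and 11.5% (10.5 to 12.5), and the ROR word, bound by the RORa and RORgt receptors, in 4.63% (4.05 to 5.29) and 1.37% (1.05 to 1.79). The T-box word AGGTGTGA followed the same order at a low level, in 1.08% and 0.413%. Among all 40072 distal intervals the TCF/LEF word was found in 10.3%, the GATA word in 17.7%, the ROR word in 2.32% and the T-box word in 0.833%. Windows of the same length 5 kb away from distal intervals held them in 8.59%, 21.5%, 2.02% and 0.905%, and promoter sequences of 300 bp from RefSeq in 8.67%, 18.5%, 2.61% and 1.28%. A match says only that these letters are in the window.

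The CLP-lost intervals held the opposite set. PU.1 words were present in 13.3% (12.3 to 14.4) of distal CLP-lost intervals and 2.52% (2.10 to 3.02) of distal ILCP-gained ones, a ratio of 5.28. ETS-IRF composite words, at which PU.1 or a related factor binds beside an IRF protein, were present in 8.96% (8.10 to 9.90) and 1.10% (0.834 to 1.45), the largest ratio of the 33 families at 8.13. E protein words were present in 35.2% (33.7 to 36.7) and 21.5% (20.4 to 22.8), and EBF1 words in 3.59% (3.05 to 4.22) and 1.39% (1.09 to 1.78). MEF2 words, spelled TATTTTTAG with the variant TATTTATAG, were present in 1.37% and 0.630%. All distal intervals held PU.1 words in 7.82%, ETS-IRF composites in 4.22%, E protein words in 28.5%, EBF1 words in 2.69% and MEF2 words in 0.966%. In the windows 5 kb away the shares were 1.12%, 2.27%, 20.2%, 2.20% and 0.711%, and in promoters they were 3.11%, 2.36%, 33.1%, 6.60% and 0.965%. The words overlap in part, because the E protein word CAGGTG is also the core site of the ZEB repressors and the composite contains the ETS core GGAA.

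The remaining families were mixed. Among those closer between the classes, AP-1 (TGACTCA) was found in 5.58% of ILCP-gained and 5.34% of CLP-lost distal intervals, MYB (AACNGCC) in 8.30% and 8.57%, STAT (TTCNNNGAA) in 6.88% and 6.76%, C/EBP (TTGCNNAA) in 8.55% and 8.26%, and SOX (ACAATGG, with the variant ACAATAG) in 3.76% and 3.92%. The RBPJ word CGTGGGAA, at which Notch signalling acts, was found in 0.292% and 0.310%. Others were lower in ILCP-gained intervals, with ETS words (CCGGAAG) in 0.675% and 1.81%, HOX/MEIS (TGATTTAT) in 0.405% and 0.878%, IKZF (TTGGGAA) in 1.39% and 2.45% and IRF (AAANNGAAA) in 9.83% and 12.6%. CTCF words were found in 6.39% and 8.52%, both lower than the 12.2% of all distal intervals. When shares were standardized to 5 bins of GC content, the TCF/LEF share was 26.5% and 5.28% and the E protein share 24.3% and 34.7%, so base composition moved them by a few points.

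Whole libraries showed the same order. Their shares do not use the class rule, but they come from the same peaks and include the class members, so they are not separate support. TCF/LEF words were in 15.4% and 15.4% of distal peaks in ILCP and in 6.15%, 6.77% and 6.63% in CLP replicates 1, 2 and 3. GATA words were in 22.0% and 22.4% against 12.2%, 14.5% and 14.7%, and ROR words in 3.10% and 3.22% against 1.59%, 1.85% and 1.86%. PU.1 words were in 5.16% and 5.11% against 10.7%, 9.14% and 9.12%, and E protein words in 25.8% and 26.2% against 33.2%, 30.3% and 30.2%. ETS-IRF composites were in 2.18% and 2.18% against 5.86%, 4.93% and 4.83%. In each of these 6 families the ILCP and CLP libraries did not overlap, and p was 0.1 in an exact two-sided permutation test, the smallest that 2 against 3 libraries allow (0.254 after Benjamini-Hochberg adjustment over 33 families). No family can therefore pass a threshold of 0.05. Both ILCP libraries lay above all CLP libraries for 7 of 33 families (21.2%), which were TCF/LEF, GATA, ROR, T-box, NR4A, STAT and YY1. They lay below all CLP libraries for 12 of 33 (36.4%), which were PU.1, the ETS-IRF composite, E protein, EBF1, IRF, IKZF, MEF2, NFIL3, HOX/MEIS, MYB, NF-kB and RBPJ. Without CLP replicate 1 the first count was 15. CTCF words did not separate the groups, at 12.6% and 12.6% against 11.6%, 12.7% and 12.4%.

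**Figure D2:**
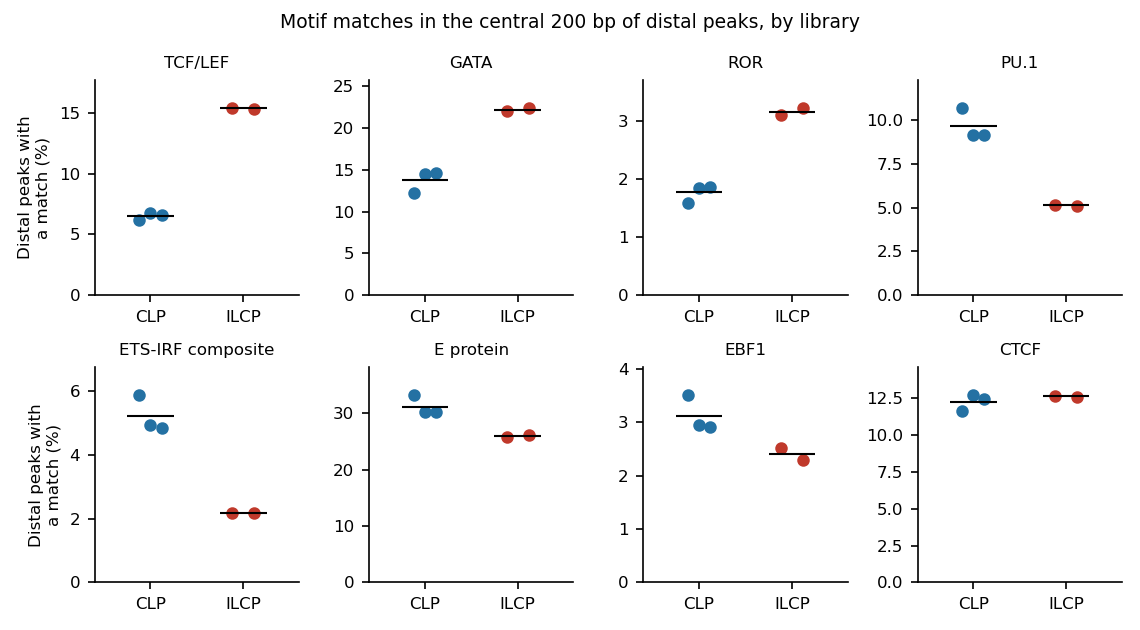
Share of distal peaks whose central 200 bp hold a word of the family (y axis, percent, each panel from 0) in the 3 CLP libraries (blue) and the 2 ILCP libraries (red); points are libraries and lines are group means. TCF/LEF, GATA and ROR lie higher in both ILCP libraries, PU.1, ETS-IRF composite, E protein and EBF1 lie lower, and CTCF overlaps.

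Part of this order depends on looking at peak centres. When the whole peak was searched, TCF/LEF and ROR words stayed higher on average in ILCP, by 5.20 and 0.167 points, and PU.1, ETS-IRF composite and E protein words stayed lower, with ILCP minus CLP differences of -7.55, -5.64 and -8.58 points. The GATA difference turned from 8.42 points higher in ILCP to 0.139 points lower, and 26 of 33 families were lower in both ILCP libraries and 1 was higher. ILCP peaks were also narrower, as given above, and the part of width in this change was not tested. The words were also counted by their position around the midpoint. This profile extends past many intervals, since the position 475 bp from the midpoint lay inside 29.8% of distal ILCP-gained and 86.7% of distal CLP-lost intervals. TCF/LEF matches in distal ILCP-gained intervals were found in 8.68% and 8.70% of the 50-bp bins on either side of the midpoint, and in 1.96% of the bin centred 475 bp upstream on the forward strand. In CLP-lost intervals the same bins held 1.32%, 1.03% and 1.70%. PU.1 matches in CLP-lost intervals were found in 4.10% and 4.44% of the central bins and 0.310% of the outer one, and E protein matches in 11.6% and 11.3% against 5.91%. GATA matches were more frequent at the centre than outside in ILCP-gained intervals (10.5% and 9.87% against 6.25%) and less frequent in CLP-lost ones (3.23% and 2.97% against 5.55%).

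**Figure D3:**
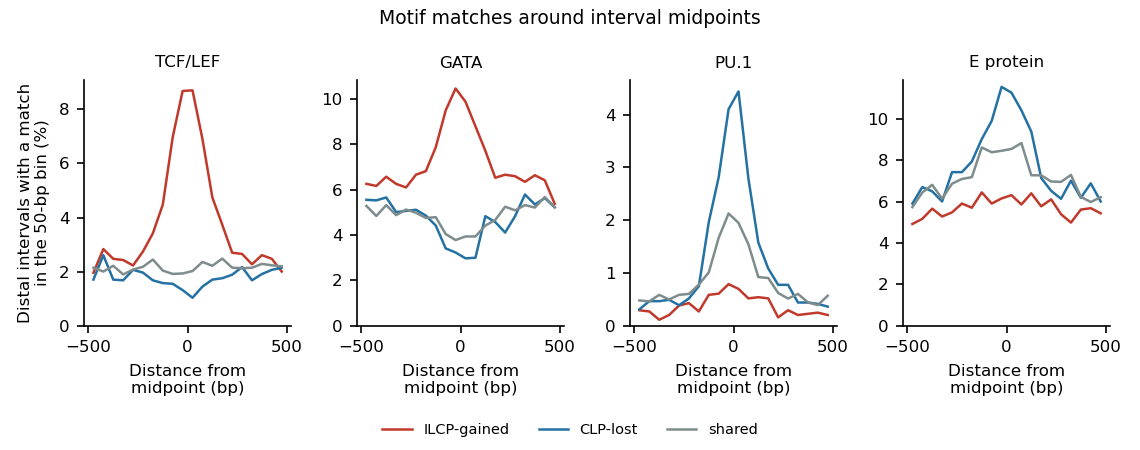
Share of distal intervals with a word match in each 50-bp bin (y axis, percent, scales differ between panels) by distance from the interval midpoint (x axis, bp), for ILCP-gained, CLP-lost and shared intervals. TCF/LEF and GATA peak at the centre of ILCP-gained intervals (8.70% and 10.5%), PU.1 and E protein at the centre of CLP-lost intervals (4.44% and 11.6%).

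In the ILCP-gained class GATA words were no more frequent beside TCF/LEF words than elsewhere. A GATA word was found in 32.5% of distal ILCP-gained intervals with a TCF/LEF word and in 32.4% of those without one, so 9.02% held both. In CLP-lost intervals 0.826% held both, with GATA words in 16.2% and 11.2%. More than 1 TCF/LEF match was found in 3.76% of ILCP-gained and 0.103% of CLP-lost intervals, and more than 1 E protein match in 2.45% and 8.13%. At least 1 of the TCF/LEF, GATA and ROR words was present in 53.6% of ILCP-gained, 17.0% of CLP-lost and 27.2% of all distal intervals. At least 1 of the PU.1, ETS-IRF composite, E protein and EBF1 words was present in 25.4%, 50.8% and 38.5%. A large share of each class thus held none of its leading words.

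Intervals just outside the rule took values in between. The TCF/LEF, GATA or ROR words were present in 46.7% of 3012 distal intervals open in 1 ILCP library and no CLP library, and in 37.0% of 633 open in both ILCP libraries and 1 CLP library, beside 53.6% inside the ILCP-gained class. The PU.1, ETS-IRF composite, E protein or EBF1 words were present in 43.8% of 9774 distal intervals open in 2 of 3 CLP libraries and neither ILCP library, and in 43.6% of 1209 open in all 3 CLP libraries and 1 ILCP library, beside 50.8% inside the CLP-lost class. When 1 ILCP and 1 CLP library were held out and the rule was applied to the other 3, 72.8% to 75.5% of the intervals then called ILCP-gained had a peak in the held-out ILCP library. The held-out CLP library had a peak at 6.09% to 9.12% of them where it was replicate 2 or 3. Where it was replicate 1 the values were 0.242% and 0.248%, which follow from the nesting of that library in the others. The intervals then called CLP-lost had a peak in the held-out CLP library at 98.2% to 99.1% where that library was replicate 2 or 3. These values restate the same nesting, because the rule still asked for a peak in CLP replicate 1. Where CLP replicate 1 was held out the share was 28.5%. The held-out ILCP library had a peak at 10.7% to 18.05% of the intervals then called CLP-lost. The size of the CLP-lost class thus rests on CLP replicate 1, without which it held 15995 intervals.

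The 4 thymic libraries, which took no part in the rule, covered the classes unequally. Thymic NKT cells express PLZF, and CD4SP thymocytes are conventional T cells. Peaks of the NKT libraries lay over 37.6% and 38.1% of ILCP-gained intervals, and peaks of the CD4SP libraries over 24.8% and 25.8%. The means were 37.9% ± 0.326 and 25.3% ± 0.714 (SD, n = 2 each), a difference of 12.5 points with p = 0.3333 in an exact two-sided permutation test, the smallest that 2 against 2 libraries allow. Over all 52483 intervals the NKT libraries covered 45.4% and 48.8% and the CD4SP libraries 42.5% and 45.6%, so their ranges overlapped there. Over all 40072 distal intervals, the nearer comparison for a class that is almost wholly distal, the NKT libraries covered 35.8% and 38.1% and the CD4SP libraries 32.2% and 34.7%, which do not overlap. The difference was 3.54 points there, 6.97 points over distal shared intervals and 12.7 points over distal ILCP-gained ones (each with exact permutation p = 0.3333). Over CLP-lost intervals the order was the reverse, at 25.3% and 26.6% in NKT against 27.9% and 29.4% in CD4SP (difference -2.74 points, exact permutation p = 0.3333). Shared intervals were covered in 84.5% and 85.9% and in 80.4% and 81.6%.

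**Figure D4:**
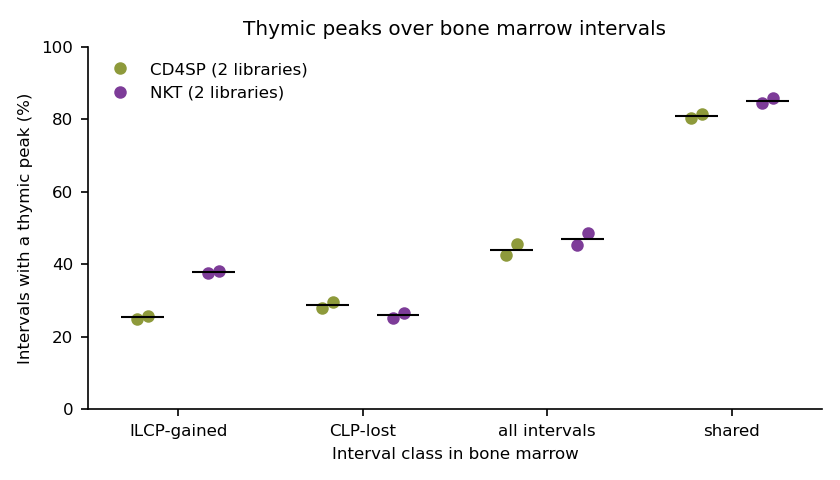
Share of bone marrow intervals that overlap a peak of a thymic library (y axis, percent) by class (x axis); points are the 2 CD4SP and 2 NKT libraries and lines are group means. Over ILCP-gained intervals the NKT libraries (37.6% and 38.1%) lie above the CD4SP libraries (24.8% and 25.8%), while over all intervals, promoters included, the groups overlap and over distal ones (35.8% and 38.1% against 32.2% and 34.7%) they do not.

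Counted by interval, 436 ILCP-gained intervals (9.57%) were open in both NKT libraries and neither CD4SP library, and 17 (0.373%) in both CD4SP libraries and neither NKT library. A further 979 (21.5%) were open in all 4 thymic libraries and 2610 (57.3%) in none. Among CLP-lost intervals the corresponding counts were 47, 116, 848 and 2774. Among shared intervals they were 356 (2.92%), 42 (0.345%), 9464 (77.7%) and 1460 (12.0%). More shared intervals were thus also open in NKT libraries alone than in CD4SP libraries alone. These patterns were not counted over all intervals. The ILCP-gained intervals open in NKT but not CD4SP libraries held TCF/LEF words in 34.0% and ROR words in 2.56% of 429 distal members. Those open in all 4 thymic libraries were close to this, at 31.7% and 2.54% of 945, while the 17 open in both CD4SP libraries alone, too few to compare, held them in 35.3% and 11.8%. Those open in no thymic library held them in 25.5% and 5.88% of 2550.

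Intervals were assigned to the gene with the nearest start site, a coarse link for sites far from any gene. Of 14680 genes with any interval, 3001 (20.4%) had an ILCP-gained and 2994 (20.4%) a CLP-lost one, and 1143 had both. Of 499 genes with at least 4 changed intervals, 421 had both kinds, 51 had ILCP-gained intervals alone and 27 CLP-lost ones alone. Of the 199 list genes with an interval, 74 had an ILCP-gained and 74 a CLP-lost interval, 37.2% each, and list genes often have many intervals.

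The lists of ILC effector genes and of ILC receptors and surface molecules had a larger share of ILCP-gained intervals than the 8.68% of all intervals, with 12 of 54 (22.2%) and 26 of 139 (18.7%). Of the 40072 distal intervals alone, 4447 were ILCP-gained and 3874 CLP-lost, so shares are higher away from start sites. The lists were not split by distance, and the part of distance in their shares was not tested. The NK receptor and signalling list had 13 of 68 (19.1%), but Cd226 gave 9 of these, and the other 14 genes had 4 of 53 (7.55%), below the share of all intervals, a split chosen after the values were seen. The CLP-lost shares of the effector, ILC receptor and NK lists were 5.56%, 10.1% and 8.82%, beside the 8.15% of all intervals. With intervals assigned to gene bodies extended by 20 kb the NK share of ILCP-gained intervals was 9.86%, against 7.84% of all intervals in such a body, and with each library cut to 19341 peaks it was 33.3%, against 14.2% of all. Pdcd1, which encodes PD-1, a surface marker of ILCP, had 5 ILCP-gained and 2 CLP-lost intervals among 19. Itga4, which encodes the a4 chain used in the ILCP sort, had 4 and 1 among 16. Among effector genes, Il17a and its neighbour Il17f, which encode interleukin 17 cytokines, had 3 of 4 and 1 of 1 intervals ILCP-gained. One of these 4, 9668 bp from the start site of Il17a at chr1:20740101-20741045, stood at the 93.4 and 91.4 percentile in the ILCP libraries and was open in both NKT libraries and neither CD4SP library. The other 3 ILCP-gained intervals of this pair were open in no thymic library. Fasl, a death ligand, had 2 of 13, Ifng 1 of 9 and Gzma, Gzmb and Prf1, which encode cytotoxic granule proteins, 1 of 1, 1 of 2 and 1 of 2. The 6 effector genes without an ILCP-gained interval, among 15 with any, included Il4 (0 of 2), Areg (0 of 4) and Tnf (0 of 1). The effector list counted peaks at start sites of only 1, 2 and 4 of its 20 genes in CLP and 2 and 2 in ILCP.

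**Figure D5:**
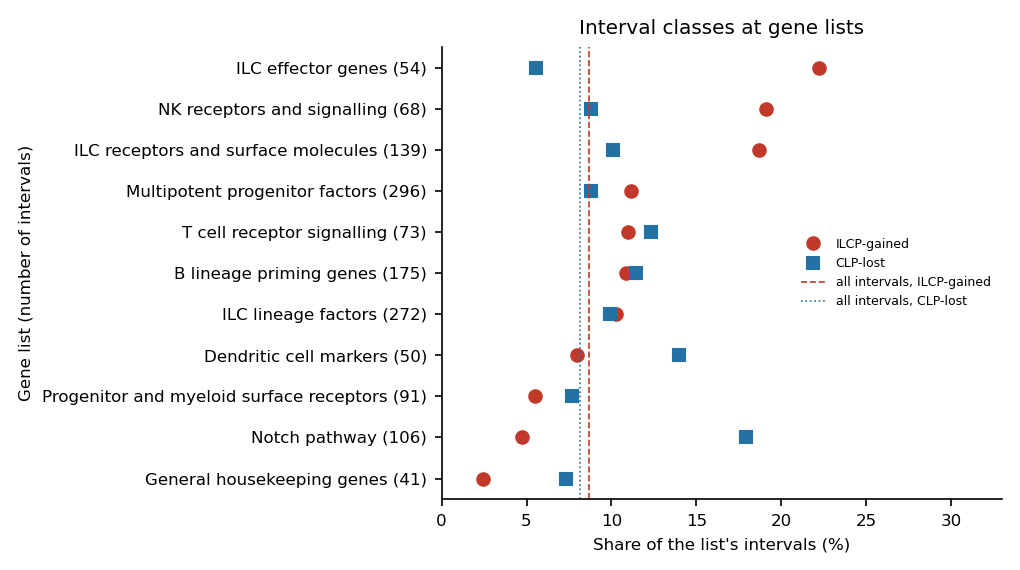
Share of each list's intervals that were ILCP-gained (circles) or CLP-lost (squares), in percent (x axis), for the lists with at least 40 intervals (y axis, number of intervals in brackets); lines mark the shares among all intervals (8.68% and 8.15%). Effector, NK and ILC receptor lists lie farthest right of the line for gained intervals, the NK list through Cd226 alone, and the Notch list for lost ones (17.9%). Other lists lie right of a line by less, up to 11.1% for gained (multipotent progenitor factors) and 14.0% for lost intervals (dendritic cell markers).

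The list of ILC lineage factors was near the background in both directions, with 28 of 272 intervals ILCP-gained (10.3%) and 27 CLP-lost (9.93%). With 19341 peaks per library its ILCP-gained share was 16.0%, against 14.2% of all, and by gene bodies its CLP-lost share was 5.22%, against 7.74%. Its genes differed among themselves. Ets1, needed for early innate lymphoid and NK development, had 6 ILCP-gained and 2 CLP-lost intervals among 35. The strongest ILCP-gained one was the intronic window printed above, at the 92.8 and 90.9 percentile of scores in the 2 ILCP libraries and open in all 4 thymic libraries. All 3 shared Ets1 intervals called in limma, described with the shared intervals below, fell in ILCP. Nfil3 had 3 ILCP-gained intervals and no lost one among 9, at low ranks of 0.862 to 29.0. Gata3 had 3 ILCP-gained intervals 283 to 358 kb downstream, all open in the 4 thymic libraries, and 1 CLP-lost one among 25. Id2, the inhibitor of E proteins, had 1 ILCP-gained interval 3.05 kb downstream of its start site, at the 90.3 and 87.9 percentile, but 6 CLP-lost ones 60.2 to 292 kb upstream, among 30. Its 2 shared intervals called in limma rose. Tox had 1 and 4 among 11, Prdm1 1 and 4 among 22 and Rora none and 2 among 14.

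Notch pathway genes had the largest share of CLP-lost intervals among lists with at least 40, 19 of 106 (17.9%), with 5 ILCP-gained (4.72%). The CLP-lost share was 11.1% by gene bodies, against 7.74% of all intervals in a body, and 32.2% with 19341 peaks per library, against 11.3% of all. The 19 lay at 8 of the 15 genes. Notch2, a receptor, had 4 of 11, and 1 of these was at its start site, at chr3:98012862-98014190. Hes1 and Hes5, transcriptional targets of the pathway, had 3 of 16 and 1 of 1, Rbpj, the DNA-binding partner of Notch, had 3 of 15, and the co-activators Maml2 and Maml3 had 3 of 11 and 3 of 26. The dendritic cell list followed with 7 of 50 CLP-lost (14.0%) and 4 of 50 ILCP-gained. The other progenitor and lineage lists were nearer the background. Multipotent progenitor factors had 33 ILCP-gained (11.1%) and 26 CLP-lost (8.78%) of 296, B lineage priming genes 19 (10.9%) and 20 (11.4%) of 175, T cell receptor signalling genes 8 (11.0%) and 9 (12.3%) of 73, and progenitor and myeloid surface receptors 5 (5.49%) and 7 (7.69%) of 91. Housekeeping genes had 1 (2.44%) and 3 (7.32%) of 41. Dntt had 3 CLP-lost intervals of 7 and no gained one, while Meis1, a homeobox factor of stem and progenitor cells, had 7 ILCP-gained and 2 CLP-lost of 35, and Bcl11a, needed for lymphoid and B cell development, had 6 and 3 of 41.

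Across all genes, Zeb2, which encodes an E-box-binding repressor, had the most ILCP-gained intervals, 10 of 42, beside 5 CLP-lost ones. Cd226 had 9 of 15, Klf12, a Kruppel-like factor, 9 of 28 and Pam, an enzyme that amidates peptides, 9 of 18, each with no CLP-lost interval. Fam49a, Fhit and Sel1l had 8 each and Adgrl4, Atp10a and Btg1 7 each, and 18 genes in all had at least 7. The most CLP-lost intervals were found at Etv6, an ETS family repressor (8 of 32, with 4 gained), Chrm3, a muscarinic receptor (8 of 24, with 2 gained), and Adgrl2, an adhesion receptor (8 of 73, with 5 gained). Tenm4 had 7, and B3gnt2, Bmper, Foxn3, Id2, Kctd12 and Marcks had 6 each. Kctd12 had no gained interval among 24. At Etv6 the 2 highest CLP-lost intervals were at the 94.2, 89.2 and 86.6 and the 82.3, 84.3 and 84.1 percentile in CLP replicates 1, 2 and 3, 14.7 kb upstream of and 120 kb into the gene, and neither was open in the thymus.

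Shared intervals could still differ in rank. Within each library the best score of every shared interval was ranked among the 12176, the ranks were turned into normal scores, and the groups were compared with limma. By Benjamini-Hochberg adjusted p under 0.05, 617 (5.07%) rose and 654 (5.37%) fell in ILCP. Of those that rose 83.8% were distal, and of those that fell 78.6%, against 42.3% of the 10905 not called. TCF/LEF words were in 11.2% of distal intervals that rose, 4.28% of those that fell and 7.46% of those not called, and ETS-IRF composites in 2.32%, 5.25% and 2.99%. PU.1 words were in 6.19%, 7.004% and 6.89%. Without ILCP replicate 1 the counts were 0 and 2 and without ILCP replicate 2 they were 0 and 0. Without CLP replicate 1 they were 2575 and 2057, and without CLP replicate 2 or 3 they were 254 to 285. Ranks at the top are uncertain, since 1253 and 1143 shared intervals of CLP replicates 2 and 3 were tied at a score of 3100 and 55 to 69 in the other libraries.

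The largest rises were near Tnfrsf1b and Irx1. An interval 10.6 kb from a start site of Tnfrsf1b, the second TNF receptor, stood at the 5.56, 11.7 and 18.6 percentile in CLP replicates 1, 2 and 3 and at the 99.98 and 99.3 percentile in ILCP (difference 4.22 ± 0.345 normal scores, SE, limma adjusted p = 0.00539). An interval 157 kb from Irx1 stood at 1.09, 7.50 and 4.45 in CLP and 98.5 and 98.8 in ILCP (4.03 ± 0.285, limma adjusted p = 0.00539). The others among the first 10 lay nearest Tle4 (a TCF co-repressor), Nav3, Btg1, Lmo4, Enpep, Tm9sf2, Tox2 and Eml4. The Tox2 interval, 38.5 kb from a start site, stood at 5.93, 4.78 and 0.119 in CLP and 78.5 and 79.5 in ILCP (2.89 ± 0.474, limma adjusted p = 0.0158). Of the 10 largest falls, nearest Uck2, Lyst, Pbp2, Irf2, BC034090, Gramd1b, Foxa1, Emc3, Sycp3 and Kif2a, only that of Kif2a was within 1 kb of a start site. The interval near Irf2, an interferon regulatory factor, stood at 72.3, 88.2 and 99.4 in CLP and 1.65 and 11.3 in ILCP (-3.10 ± 0.551, limma adjusted p = 0.0193). Merged intervals are wide in places (6125 bp at Foxa1), so the best peak can lie at different positions in different libraries.

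Among list genes, every list with shared intervals that fell also had some that rose, read beside the 5.07% and 5.37% of all shared intervals. ILC lineage factors had 5 that rose and 7 that fell of 38, and multipotent progenitor factors 6 and 8 of 49. ILC receptors had 4 and 1 of 19, Notch genes 2 and 0 of 19, B lineage priming genes 3 and 2 of 26, and ILC effector genes 1 and 0 of 11. No shared interval was called in limma for the NK (14), T cell receptor (15), progenitor and myeloid receptor (19) and housekeeping (15) lists, nor for the 4 lists of other cells, which held 1 to 5 each. At an unadjusted limma p under 0.05 the first 4 of these lists had 4, 4, 5 and 3, and the erythroid, myeloid, dendritic and mast cell lists had 2, 0, 1 and 0, of 3589 among all 12176 shared intervals. The 3 called at Ets1 all fell. That at its start site stood at 70.1, 79.2 and 80.3 in CLP and 50.8 and 45.4 in ILCP (limma adjusted p = 0.0355), one 9837 bp away at 96.1, 80.8 and 81.6 and then 44.1 and 45.7 (limma adjusted p = 0.0324), and one 786616 bp away at 93.2, 93.9 and 94.5 and then 51.4 and 52.1 (limma adjusted p = 0.00539). The other falls on this list were 1 at Ikzf2, 2 at Prdm1 and 1 at Gata3, and the 5 rises were 2 at Id2, 2 at Tox2 and 1 at Rora. The Id2 intervals, 119812 and 143137 bp from a start site, rose from 5.002, 15.6 and 12.0 to 55.4 and 51.3 (limma adjusted p = 0.0312) and from 21.9, 4.34 and 7.07 to 50.01 and 52.0 (limma adjusted p = 0.0499). The Gata3 interval, 76347 bp from a start site, fell from 88.2, 86.7 and 88.4 to 13.9 and 38.2 (limma adjusted p = 0.00887). At Mef2c, a factor of lymphoid progenitors, an interval 44.8 kb from a start site rose from the 19.6, 15.7 and 9.55 percentile in CLP to 81.7 and 85.6 in ILCP (limma adjusted p = 0.00626). Another at its start site fell from 98.6, 93.9 and 94.5 to 74.5 and 60.8 (limma adjusted p = 0.0217). Here and at the most distant Ets1 interval, the 93.9 and 94.5 of CLP replicates 2 and 3 are ranks of intervals tied at a score of 3100. The start-site interval of Ebf1, which specifies B cells, fell from 43.6, 34.5 and 38.7 to 9.24 and 2.73 (limma adjusted p = 0.0327), while another 35.9 kb away rose from 12.0, 7.73 and 7.19 to 52.3 and 39.6 (limma adjusted p = 0.0328). The start-site interval of Cebpa, a myeloid factor, fell from 71.0, 86.6 and 82.9 to 48.9 and 39.4 (limma adjusted p = 0.0286). An interval 8.55 kb from a start site of Il12rb2, a subunit of the interleukin 12 receptor, rose from 26.4, 23.6 and 10.2 to 75.9 and 63.4 (limma adjusted p = 0.0255).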

How the data were processed

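Bone marrow ILCP (2 libraries) and CLP (3) and thymic NKT and CD4SP cells (2 each) were profiled by ATAC-seq. Reads of 50 bp were aligned by the authors to mm10 with bowtie, allowing 2 mismatches, and peaks were called by MACS for each library. The submitters' processing notes also name Picard and HOMER. The MACS version and settings are not given in the sources used here. The deposited files list peak positions and a score of at least 120, which carries no header and was used only as a rank within a library. Sequencing depth is stated in the methods for the ATAC-seq libraries as a group, and not for each one.

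Peaks on chrM and within 20 kb of Zbtb16 were removed. Peaks were merged (1 bp of overlap) and classed as in the text. Distal means over 1 kb from the 54355 start sites of protein-coding transcripts in GENCODE M21. Words of 33 families were searched in the central 200 bp on both strands of GRCm38, and promoters were taken from RefSeq on GRCm38. The members and lists were chosen with earlier results of these data known. Named genes are the members of 14 gene lists, the 10 genes with the most ILCP-gained and CLP-lost intervals, with ties in alphabetical order, and the genes nearest the 10 largest rises and falls of shared intervals. Sequences are the central window of the best-ranked interval of the 5 list genes with the most intervals of a class, of which 4 are shown, chosen after their matches were seen. A list gene and a sequence are not reported here. Of the 10 windows, 2 held none of the 7 words.

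Libraries were compared by exact two-sided permutation tests, and shared intervals by limma 3.58.1 in R 4.3.3 with a trend and Benjamini-Hochberg adjustment. Alternatives were peak number, interval coverage, class rule, start-site distance, search window, GC content, score scale, assignment of intervals to genes, libraries left out and a replicate block. Deviations from the group means were nearly uncorrelated between ILCP and CLP libraries with the same replicate number (correlations of -0.0246 and -0.0285). With 2 ILCP libraries these values are not independent, and they cannot exclude a shared preparation. Merging, classing, overlaps, the search for a TCF/LEF word, nearest start sites, the exact permutation test and limma were tested on simulated or made-up data. The other steps were not. Python 3.11.15, pandas 2.3.3 and pysam 0.24.0 were used. The ChIP-seq libraries of the series were not analysed here.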

Additional observations from a re-analysis of the deposited data

How the results depend on the processing

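With each library cut to its best 19341 peaks by score, near-start-site shares were 3.63% of ILCP-gained and 14.7% of CLP-lost intervals, TCF/LEF words were in 24.98% of the former and PU.1 words in 11.4% of the latter. With the higher-scoring 50% of peaks there were 2395 gained, 2015 lost and 6494 shared intervals, with 2.96%, 13.6%, 26.2% and 11.1%. With 50% coverage there were 7765 shared intervals, and 12.8% of lost ones were near start sites. With at least 2 of 3 CLP libraries there were 16116 lost intervals, with 15.3% and 11.7%. Searching whole intervals gave 51.7% for TCF/LEF and 24.4% for PU.1. Leaving out each library gave 4352 to 15995 lost intervals, 9.40% to 15.3% of them near start sites, PU.1 words in 11.6% to 13.2% and TCF/LEF words in 25.5% to 27.7% of gained ones. The gained class held 4568 to 6196 and the shared class 12216 to 15763 intervals.

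The start-site difference between libraries changed sign within 5 kb (-0.485 points), with all annotated genes (-0.0453), with 19341 peaks each (-5.24) and over left-out libraries (-1.88 to 4.01), and a replicate block gave 0.188 with exact p = 1. Families not overlapping between libraries numbered 1 higher and 26 lower with whole peaks, where GATA (-0.139 points), T-box (-0.464) and NR4A (-0.725) reversed, and 7 to 15 higher and 13 to 15 lower with a library left out. For 12 families tracked singly, 117 of 120 alternatives kept direction, and the 3 reversals were those with whole peaks. The groups did not overlap for any of these 12 families. Leaving out a library or adding a replicate block could therefore not reverse them, and those alternatives are no support. Calls among shared intervals ranged from 0 to 2575 higher and 0 to 2057 lower without each library, and a replicate block, which the numbers do not support, gave 498 and 723. Of 160 alternative fits for the 20 named shared intervals, none changed direction and 43 lost the call. These 20 were picked as the largest differences in the same data, and their groups did not overlap. Leaving out a library could therefore not change their direction. Thymic differences kept their sign throughout (12.0 to 13.0 and -3.50 to -1.98 points without each library, and 12.5 and -2.74 with exact p = 0.5 in a replicate block). List shares moved beyond their Wilson interval in 15 of 84 alternatives. With 1 library per group left, the lone library is assumed to vary like the others. The causes of these changes were not tested.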

Other observations

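Class size varied by chromosome. ILCP-gained intervals made up 10.7% of the 3216 intervals of chromosome 6, 10.3% on chromosome 18 and 10.1% on chromosome 14. They made up 6.49% on chromosome 11 and 6.67% on chromosome 19. Among autosomes CLP-lost intervals reached 9.51% on chromosome 1.

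TCF/LEF words were somewhat more frequent among better-ranked members of the ILCP-gained class, and PU.1 words less frequent among better-ranked members of the CLP-lost class. In 4 equal groups from the lowest to the highest score rank, TCF/LEF words were in 24.5%, 26.9%, 30.1% and 29.6% of distal ILCP-gained intervals, and PU.1 words in 16.6%, 14.6%, 11.7% and 10.3% of distal CLP-lost intervals. E protein words showed no such course, at 35.8%, 33.8%, 33.7% and 37.4%.

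Start-site members showed the same words in small numbers. TCF/LEF words were in 23 of the 109 ILCP-gained intervals within 1 kb of a start site (21.1%, Wilson 14.5 to 29.7) and in 10 of 403 CLP-lost ones (2.48%, 1.35 to 4.51), against 3.25% of all 12411. GATA words were in 23.9% and 4.22%, against 5.15%. Median GC content was 49.5% and 59.5% in these classes, and with shares standardized to 5 bins of GC content TCF/LEF words were in 21.9% and 6.76%, against 7.49% of all, and GATA words in 26.4% and 7.87%, against 14.8%.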
